A study of Oryza sativa with 4 samples.

Results

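OsENOD93a is a rice early nodulin gene, and 2 of the 21495 cDNA probes on the array carry its name in their descriptions: the full-length cDNAs AK105832 (probe A_71_P115526) and AK059772 (probe A_71_P115525). Both were chosen by name, with earlier results of these data known: the values in view were the log2 ratios of transgenic over wild type, lowest for AK105832. The ratios to wild type are therefore described here without a test. Both passed the filter on dim spots and were among the 18094 probes tested, AK059772 only with the antisense arrays, where its wild type level was high. A further cDNA, AK072428 (probe A_71_P106483), is described as OsENOD93b, which makes 3 cDNAs described as ENOD93 of any kind. The files do not say whether AK105832 and AK059772 come from 1 gene or from several, and give no genomic position for them.

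Early nodulins are proteins first known from the forming root nodules of legumes, but plants that form no nodules, rice among them, carry related genes. ENOD93 proteins are small membrane proteins. In Arabidopsis an ENOD93 protein is found in mitochondria and acts with cytochrome c oxidase, the last enzyme of the respiratory chain. In rice, raised expression of an ENOD93 gene has been linked to nitrogen use.

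The study asked which genes lie downstream of RFL, the rice counterpart of the LEAFY flowering regulator, by comparing branching panicles of RFL knock-down plants with wild type panicles of the cultivar TP309 on 4 arrays with 2 colours. The groups were dsRNAiRFL panicles on 2 arrays, panicles expressing RFL antisense RNA on 2 arrays, and wild type panicles in the other colour of all 4 arrays. In each construct, transgenic RNA was in Cy5 on replicate 1 and in Cy3 on replicate 2. The series speaks of independent RNA pools, yet nothing in the antisense labels shows that its arrays were hybridised with separate ones. Promoters, plant ages and the number of lines are not given in the sources used here. RFL's own level was not checked, since 0 of the 21495 descriptions name RFL, LEAFY or FLORICAULA.

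Between 16106 and 18191 probes were well above background in the transgenic channels, and between 14722 and 17270 in the wild type channels, and 14 to 91 probes an array were saturated in a channel. The labelled tissue was checked on 3 panicle meristem markers (OSH43, HOS3 and HOS9) and 7 floral MADS markers, and all 10 were well above background in both channels of all arrays. Scan day and scanner software version differed between the constructs and were shared within each, so that they cannot be told apart from construct in any comparison of the dsRNAi arrays with the antisense arrays. In the wild type channels, log2 levels across probes correlated at 0.988 and 0.991 within a construct's arrays but at 0.936 to 0.947 across constructs. In the transgenic channels they correlated at 0.994 and 0.989 within constructs and at 0.982 to 0.986 across them.

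AK105832 was far lower in RFL knock-down panicles than in wild type panicles on every array. After background correction and normalisation, its log2 level in dsRNAi panicles was 9.53 and 9.87, against 13.16 and 13.12 in the wild type channels of the same arrays. In antisense panicles it was 10.04 and 9.76, against 15.59 and 15.29 in the wild type channels of those arrays. The 4 transgenic levels lay close together, while the wild type levels fell into a lower pair on the dsRNAi arrays and a higher pair on the antisense arrays.

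The log2 ratio of AK105832, transgenic over wild type, was -3.63 and -3.25 on the dsRNAi arrays, with a mean of -3.44 ± 0.266 (SD, n = 2). It was -5.56 and -5.53 on the antisense arrays, with a mean of -5.54 ± 0.0225 (SD, n = 2). These means correspond to levels 10.9-fold lower in dsRNAi panicles and 46.6-fold lower in antisense panicles than in wild type. In the mean of both constructs the ratio was -4.49 ± 1.22 (SD, n = 4), a 22.5-fold lower level and the 9th lowest of 18094 probes, where the median probe stood at -0.0016. Of all probes, 41.7% passed the test in that comparison, 21.3% with a lower level, and 37.2% passed for antisense alone and 25.8% for dsRNAi alone. Nothing is read from these shares about AK105832, which was chosen with its ratios known.

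The scanner signals of AK105832 were strong throughout. Its raw signal was 2175 and 775.8 in dsRNAi panicles and 4109 and 9532 in the wild type channels of those arrays. It was 1883 and 514.3 in antisense panicles and 27690 and 65220 in the wild type channels of those arrays, over local backgrounds of 49 to 77 on all 4 arrays. Every channel was well above background. The wild type spot on antisense replicate 2 was saturated in 59 of 59 pixels, so its level there is a lower bound and the ratio on that array can only understate the difference, but the unsaturated antisense replicate 1 gave nearly the same ratio.

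AK059772, the second OsENOD93a cDNA, was also lower in antisense panicles than in wild type, whereas on the dsRNAi arrays it was dim in both channels. Its log2 level in dsRNAi panicles was 5.91 and 6.39, against 6.65 and 6.54 in the wild type channels. In antisense panicles it was 6.17 and 7.12, against 10.42 and 10.61 in the wild type channels. The only high levels were those of wild type RNA on the antisense arrays, and the other 6 levels lay within 5.91 to 7.12.

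Raw signals show how near background this probe was. In dsRNAi panicles it read 95.68 over a background of 77 and 93.33 over 49, and neither spot was well above background. In the wild type channels of those arrays it read 103.5 over 51, which was well above background, and 125.2 over 77, which was not. In antisense panicles it read 149.3 over 77 and 106.8 over 50, and in the wild type channels 896.8 over 51 and 2154 over 78, all well above background. None of its spots was saturated.

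The log2 ratio of AK059772 was -0.74 and -0.15 on the dsRNAi arrays (mean -0.45 ± 0.417, SD, n = 2) and -4.26 and -3.49 on the antisense arrays (mean -3.87 ± 0.543, SD, n = 2). After the background correction and normalisation used here, the level in antisense panicles was 14.6-fold lower than in wild type. In dsRNAi panicles the level has only an upper bound, and since wild type was itself well above background on 1 of the 2 dsRNAi arrays, no fold is given there. In the mean of both constructs the ratio was -2.16 ± 2.02 (SD, n = 4), with the SD nearly as large as the mean.

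**Figure D1:**
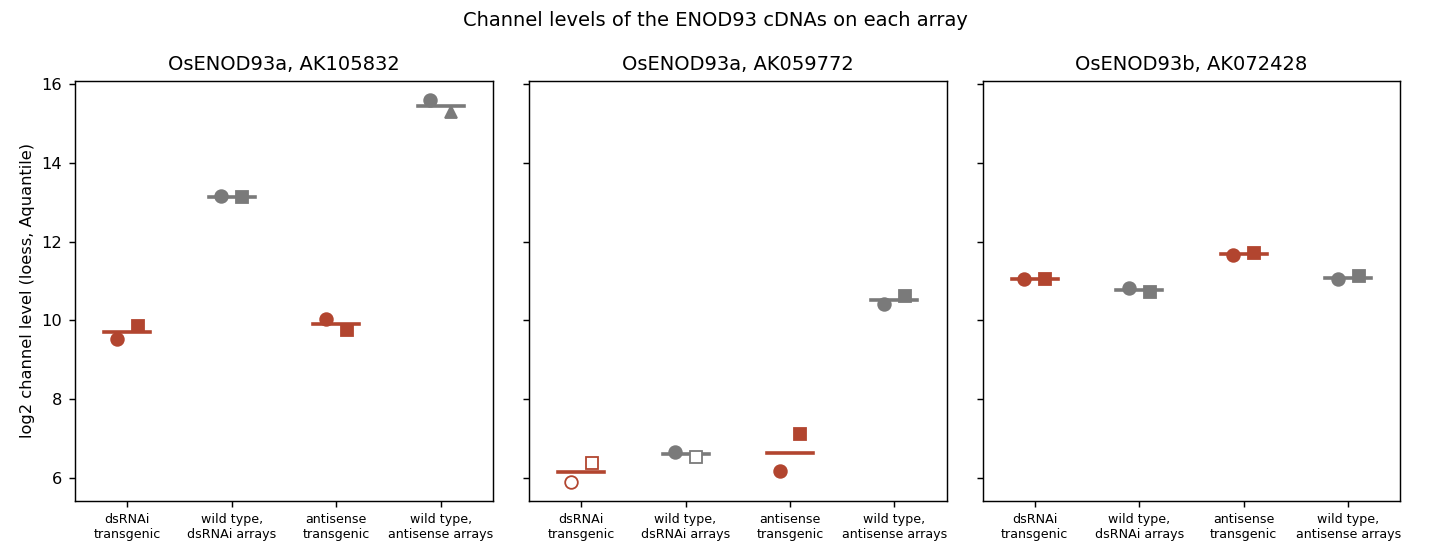
Log2 channel levels (y axis) of AK105832, AK059772 and AK072428 in dsRNAi panicles, wild type on the dsRNAi arrays, antisense panicles and wild type on the antisense arrays (x axis). Circles are replicate 1, squares replicate 2, open symbols spots not well above background, the triangle a saturated spot and bars the means of 2 arrays. For both OsENOD93a cDNAs the wild type level on the antisense arrays stands highest, at 15.59 and 15.29 for AK105832 and 10.42 and 10.61 for AK059772.

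The source of the processed values changed AK059772 far more than AK105832. The log ratios that the scanner software wrote put AK105832 at -3.71 and -3.37 on the dsRNAi arrays and -5.61 and -5.73 on the antisense arrays. The authors' processed table gave -3.63 and -3.26 on the dsRNAi arrays and -5.43 and -5.54 on the antisense arrays. All 3 sources thus placed AK105832 within a narrow range on each array. For AK059772 the scanner software's log ratios were -3.76 and -1.24 on the dsRNAi arrays and -5.66 and -5.41 on the antisense arrays. The authors' processed table left dsRNAi replicate 1 empty and gave -5.22 on dsRNAi replicate 2, with -5.95 and -5.16 on the antisense arrays. The sign was negative in every source, but the size on the dsRNAi arrays was not settled. On the antisense arrays the size also moved. There the mean was -3.87 here, -4.61 with a background offset of 10, -5.53 from the scanner software and -5.555 from the authors' table.

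**Figure D2:**
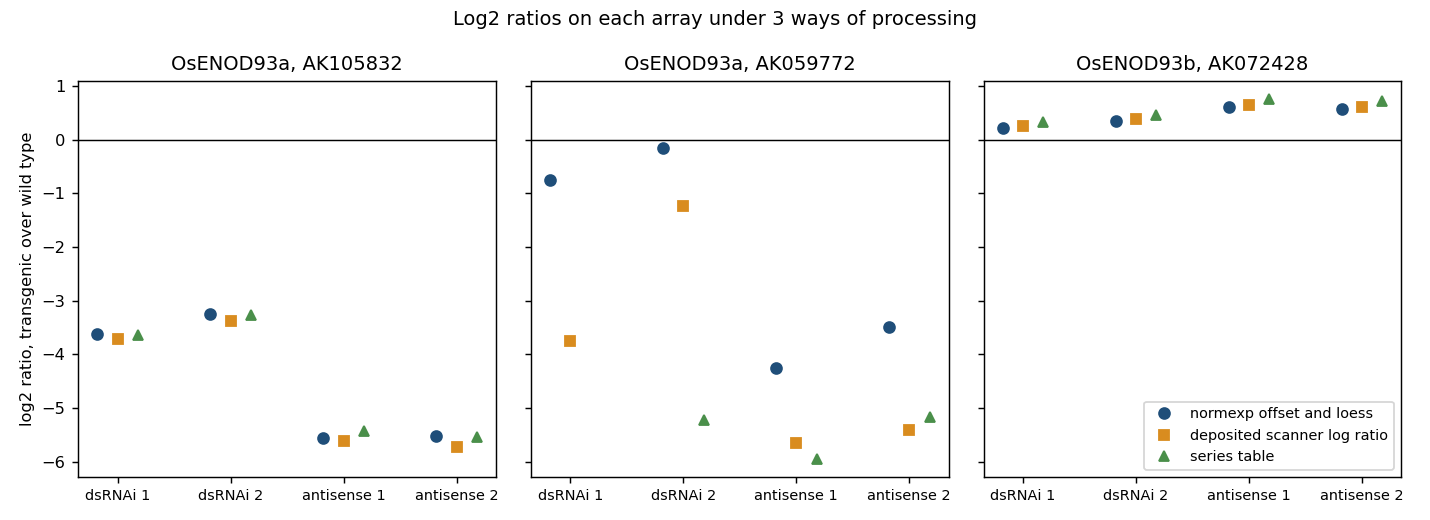
Log2 ratios of transgenic over wild type (y axis) for the 3 ENOD93 cDNAs on each array (x axis), from normexp correction with loess (circles), the scanner software (squares) and the authors' series table (triangles). AK105832 stays between -5.73 and -3.25 from all sources, and AK072428 lies above 0 on all arrays. AK059772 ranges from -3.76 to -0.74 on dsRNAi replicate 1, where the series table has no value, and from -5.22 to -0.15 on dsRNAi replicate 2.

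The ratios of the OsENOD93a cDNAs were less negative with dsRNAi than with antisense RNA. This difference is a contrast of its own, orthogonal to the mean over both constructs but not to either construct's ratio alone. Those ratios were known when the cDNAs were chosen, so the p-values of the difference are not independent of the choice. For AK105832 the difference, dsRNAi minus antisense, was 2.10 ± 0.182 on the log2 scale (SE, limma, adjusted p = 0.000429, 95% interval 1.68 to 2.53). For AK059772 it was 3.42 ± 0.294 (SE, limma, adjusted p = 0.000417, 95% interval 2.74 to 4.11). Both cDNAs passed, in a comparison where 16.4% of all probes passed and 6.32% passed with a higher ratio in dsRNAi. The value for AK059772 rests on dsRNAi spots near background. That probe met the filter on dim spots only with the antisense arrays, where its wild type level was high. The difference of AK059772 was 3.04 (adjusted p = 0.0847) from the scanner software's log ratios and 0.34 (adjusted p = 0.677) from the authors' processed table, so the call did not hold there. With each array centred on its median in place of loess, neither call held, at 2.42 for AK105832 (adjusted p = 0.43) and 2.67 for AK059772 (adjusted p = 0.329).

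A fit of the separate channels looked at wild type and transgenic RNA apart. For AK059772 it cannot tell how far transgenic RNA had a part, since neither of its spots in dsRNAi panicles was well above background. Between the wild type channels, dsRNAi arrays minus antisense arrays, AK105832 differed by -2.30 ± 0.163 (SE, limma, adjusted p = 7.03e-06). Without antisense replicate 2, where the wild type spot was saturated, the difference was -2.46 (adjusted p = 5.71e-08). AK059772 differed by -3.92 ± 0.27 (SE, limma, adjusted p = 5.81e-06). That probe met the filter on dim spots only with the antisense arrays, where it was high in wild type, so this p-value is not read as support. The size of the difference is not settled. On the dsRNAi arrays the wild type spot of AK059772 was well above background on 1 of 2 arrays, and the scanner software's processed signals gave -5.88 (adjusted p = 0.000384). Of all probes, 32.8% passed in the wild type channels and 17.1% passed with a lower level on the dsRNAi arrays. The pool of wild type plants, the scan day and the software version cannot be told apart here.

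Between the transgenic channels, neither OsENOD93a cDNA passed, in a comparison where 2.76% of all probes did, 1.29% with a higher and 1.47% with a lower level in dsRNAi. AK105832 differed by -0.20 ± 0.163, dsRNAi minus antisense (SE, limma, adjusted p = 0.587), with a 95% interval of -0.56 to 0.16. AK059772 differed by -0.49 ± 0.27 (SE, limma, adjusted p = 0.383), with a 95% interval of -1.09 to 0.11, and was not well above background in dsRNAi panicles. The antisense arrays disagreed on this probe: without antisense replicate 1 the difference was -0.97 (adjusted p = 0.0308), and without antisense replicate 2 it was -0.02 (adjusted p = 0.995). The scanner software's processed signals gave -2.85 (adjusted p = 0.064).

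**Figure D3:**
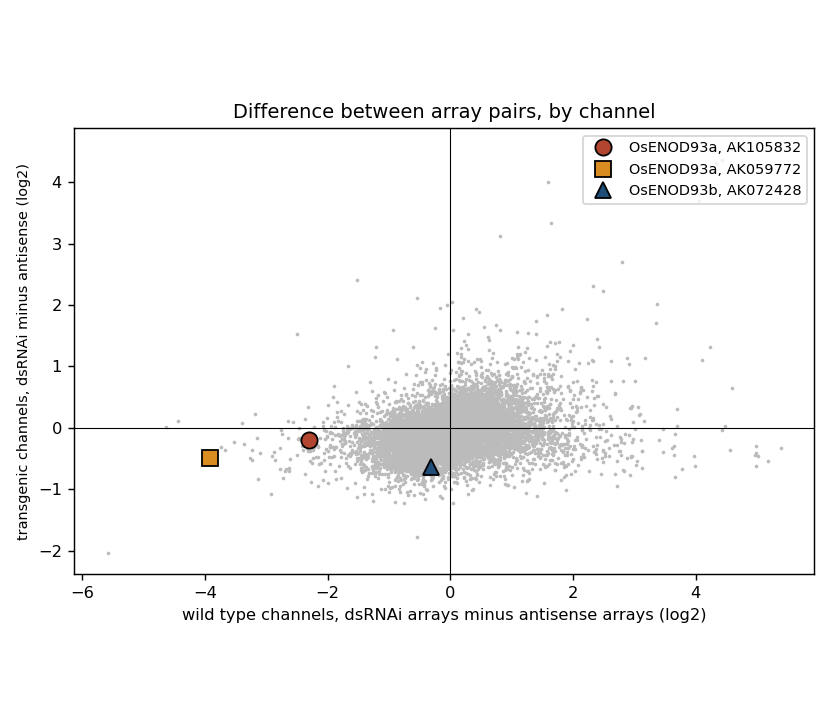
Each of 17997 probes is a grey point at its log2 difference between the dsRNAi and antisense arrays in the wild type channels (x axis) and in the transgenic channels (y axis), with the 3 ENOD93 cDNAs marked. AK105832 and AK059772 lie at -2.30 and -3.92 on the x axis and at -0.20 and -0.49 on the y axis.

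Markers of other tissues also differed between the wild type channels. Of 33 leaf markers tested, 20 were higher and 3 lower on the dsRNAi arrays (median 1.05), where 15.7% of all probes were higher, and their summed level was 71010 to 78030 in wild type on the dsRNAi arrays and 36800 to 37820 in wild type on the antisense arrays. In the transgenic channels 19 of the 33 leaf markers were higher in dsRNAi, where 1.29% of all probes were. Their sums were 62620 to 68320 in dsRNAi panicles and 42050 to 43440 in antisense panicles, over the 39 leaf markers on the array. Of 5 root-specific cDNAs tested, 3 were higher in wild type on the dsRNAi arrays, where the 9 on the array summed to 12900 to 13470, against 6880 to 7199 on the antisense arrays. The summed leaf and root levels were thus higher in the wild type channels where the OsENOD93a cDNAs were lower. Leaf sums were also higher in dsRNAi than in antisense panicles. There AK105832 differed by -0.20 (limma, adjusted p = 0.587) and AK059772 by -0.49 (limma, adjusted p = 0.383). A link between these levels was not tested.

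In the wild type channels 15.7% of all probes were higher and 17.1% lower on the dsRNAi arrays. All 3 panicle meristem markers were higher in wild type on the dsRNAi arrays, with sums of 5688 to 5818 there and 2522 to 2731 on the antisense arrays. Of 7 floral markers, 4 were lower in wild type on the dsRNAi arrays, with a sum of 12520 on both, against 18570 to 21080 on the antisense arrays. Of 7 seed markers tested 1 was lower, with the 11 on the array summing to 1042 to 1176 in wild type on the dsRNAi arrays and 1237 to 1353 on the antisense arrays. Of 3 anther markers tested 1 was higher, with the 8 on the array summing to 9541 to 10010 in wild type on the dsRNAi arrays and 5984 to 6467 on the antisense arrays. The part of tissue makeup in the OsENOD93a difference was not tested, and in bulk panicles fewer cells of a type and less RNA per cell cannot be told apart.

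OsENOD93b (AK072428) ran the other way and by much less. Its log2 level was 11.04 and 11.05 in dsRNAi panicles, against 10.82 and 10.71 in wild type on those arrays, and 11.65 and 11.71 in antisense panicles, against 11.04 and 11.13 in wild type. Its log2 ratio was 0.22 and 0.34 on the dsRNAi arrays and 0.62 and 0.58 on the antisense arrays. In the mean of both constructs it rose by 0.44 ± 0.0784 (SE, limma, adjusted p = 0.00298), which is 1.36-fold, in a comparison where 20.4% of all probes passed with a higher level. The rise passed for antisense alone (0.60, adjusted p = 0.00417) and not for dsRNAi alone (0.28, adjusted p = 0.107, 95% interval 0.02 to 0.54). The ratio's difference between constructs did not pass (-0.32 ± 0.157, adjusted p = 0.23, 95% interval -0.68 to 0.05).

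In the transgenic channels OsENOD93b was lower in dsRNAi than in antisense panicles by 0.63 on the log2 scale (-0.63 ± 0.122, SE, limma, adjusted p = 0.0273). That call was lost whenever 1 of the 4 arrays was left out, though the difference stayed at -0.66 to -0.61 (adjusted p = 0.0937 to 0.188). It was also lost with another quantile scaling (-0.57, adjusted p = 0.0541), with a background offset of 10 (-0.65, adjusted p = 0.0565) and with the processed signals (-0.58, adjusted p = 0.106). Between the wild type channels the difference was -0.32 ± 0.122 (adjusted p = 0.0715). The mean rise of OsENOD93b was lost with median centring in place of loess (0.59, adjusted p = 0.595).

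The probes whose pattern was most like AK105832 were found by the Euclidean distance over the 4 log2 ratios, among 17997 probes and keeping those with a described product. They were a putative I-box binding factor (AK107134, distance 0.601), a pyruvate decarboxylase (AK100501, 0.729), the cDNA like Arabidopsis At2g46960 (AK106081, 0.761), the glutamate decarboxylase OsGAD2 (AK071556, 0.942) and a fatty acid elongase (AK067907, 1.35). The I-box binding factor had log2 ratios of -3.94 and -3.27 on the dsRNAi arrays and -5.96 and -5.85 on the antisense arrays. Pyruvate decarboxylase, which opens the path from pyruvate to ethanol, had -3.40 and -2.87 on the dsRNAi arrays and -5.28 and -5.02 on the antisense arrays. OsGAD2, which makes GABA from glutamate, had -3.60 and -4.10 on the dsRNAi arrays and -5.76 and -5.16 on the antisense arrays.

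By the 8 channel levels, each centred on the probe's mean, the 5 nearest to AK105832 kept AK106081 (0.823), OsGAD2 (0.914), pyruvate decarboxylase (1.03) and the I-box binding factor (1.35), and held the cDNA like At5g01750 (AK107781, 1.33). OsGAD2, for example, was at log2 levels of 10.23 and 10 in dsRNAi panicles and 10.70 and 10.14 in antisense panicles. In wild type it was at 13.83 and 14.10 on the dsRNAi arrays and at 16.46 and 15.30 on the antisense arrays. These probes were chosen for their nearness to AK105832, so a shared pattern is no separate result. Each had wild type levels above its transgenic levels, and higher on the antisense than on the dsRNAi arrays.

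The neighbours of AK059772 rest in part on its dsRNAi array values, of which 1 of 4 spots was well above background. Over the 4 ratios they were a hydrophobic LEA-like protein (AK063592, distance 0.795), the auxin-responsive IAA2 (AK073365, 0.934), the universal stress protein USP1 (AK073356, 1.1), and the cDNAs AK065697 (1.14) and AK107125 (1.28). Over the 8 channel levels IAA2 (0.839), the LEA-like protein (0.893) and AK107125 (1.01) came first, followed by a dehydrin (AK063517, 1.1) and a blue copper-binding protein (AK063041, 1.22). LEA proteins and dehydrins are known to accumulate in drying or water-stressed tissue. The LEA-like cDNA had log2 levels of 7.03 and 7.02 in dsRNAi panicles, against 7.70 and 7.46 in wild type on those arrays. It had 7.17 and 7.60 in antisense panicles, against 10.70 and 10.93 in wild type.

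The dehydrin, chosen by the same distance, had a signal far from background. Its log2 levels were 9.74 and 9.95 in dsRNAi panicles, against 9.64 and 9.84 in wild type on those arrays, and 9.79 and 9.89 in antisense panicles, against 14.29 and 14.44 in wild type. Only the wild type channels of the antisense arrays were high. The 4 ratios and 8 channels of all these probes share the same arrays and RNA pools.

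Beside ENOD93, 24 cDNAs on the array are described as nodulins, a mixed group of membrane and transporter-like proteins named after their legume relatives, and 18 were tested. In the mean of both constructs 7 rose and 4 fell, 11 of 18, where 41.7% of all probes passed, and the list's median was 0.06, against -0.0016 over all probes. A putative nodulin like At1g75500 (AK111956) rose most, by 1.73 ± 0.0982 (SE, adjusted p = 7.68e-06), with 1.31 and 1.103 on the dsRNAi arrays and 2.04 and 2.46 on the antisense arrays. AK073339, like At1g21890 and well above background in wild type RNA on 2 of 4 arrays, rose by 1.33, and AK073366, like the Medicago nodulin N21, by 0.89.

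AK070844, a further nodulin cDNA described like At1g21890, is counted among those that fell. It passed the filter on dim spots through wild type RNA alone, so its calls are not read as support. It was not well above background in transgenic RNA on any array, so only bounds are given: wild type was at least 4.24-fold above dsRNAi panicles and at least 33.1-fold above antisense panicles. Each bound sets the mean of the bright channel against, on each array, the higher of the dim probe's own level and the lowest level well above background. Its wild type level was 7.96 and 8.30 on the dsRNAi arrays and 10.99 and 11.58 on the antisense arrays, so it too was higher in wild type on the antisense arrays. AK072288 (-0.83) and AK058673 (-0.61) also fell, with transgenic RNA well above background on 2 of 4 arrays for AK072288 and 3 of 4 for AK058673. Between constructs 1 nodulin was called with a higher ratio in dsRNAi and 4 with a lower one, where 6.32% of all probes passed with a higher and 10.1% with a lower ratio. The median was -0.19, against -0.01 over all probes. The 1 called higher was AK070844, whose ratios are bounds and give neither size nor direction. AK103941 (-1.48) and AK111956 (-1.04) had the largest differences among the lower ones.

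The cytochrome c oxidase list held 5 cDNAs, and all 5 were tested. In the mean of both constructs 1 of the 5 passed, where 41.7% of all probes did. AK108508, described as the mitochondrial subunit COX2 of wheat, rose by 0.45 ± 0.103 (SE, adjusted p = 0.00993), with log2 ratios of 0.53 and 0.13 on the dsRNAi arrays and 0.40 and 0.74 on the antisense arrays. The other four, described as subunits 5c, 6b, 6b-1 and I, had means of -0.18 (AK072527), -0.16 (AK111257), -0.10 (AK062787) and -0.26 (AK064537), and none of these passed. The median was -0.16, against -0.0016 over all probes. Between constructs 0 of the 5 passed in limma, where 16.4% of all probes did. An unadjusted p under 0.05 was found for 1, the subunit 6b cDNA AK111257 at -0.52 ± 0.172 (SE, adjusted p = 0.083).

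Of 43 cDNAs described as nitrogen transporters or enzymes of nitrogen assimilation, 36 were tested. In the mean of both constructs 8 rose and 7 fell, 15 of 36, close to the 41.7% over all probes, and the median was 0.07. The list's wording also took in 2 tRNA-glutamine synthetases, and without them 14 of 34 passed. A nitrate transporter like soybean NRT1-5 (AK065253) rose by 1.37 ± 0.0839 (SE, adjusted p = 1.1e-05), the ammonium transporter AMT2 (AK100411) by 1.33 and the rice nitrate transporter NRT1 (AK066920) by 1.22. Wild type RNA was not well above background for AMT2 on the antisense arrays, where antisense panicles were at least 4.56-fold higher.

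Nitrate reductase (AK102363), the first enzyme of nitrate assimilation, fell by 1.66 on the log2 scale (-1.66 ± 0.0811, SE, adjusted p = 3.98e-06). Its ratios were -1.43 and -1.62 on the dsRNAi arrays and -1.83 and -1.75 on the antisense arrays, so the ratios of both constructs lay within -1.83 to -1.43. The nitrate transporters AK068409 (-0.85) and AK071803 (-0.78) fell as well. AK071803 had -0.26 and -0.43 on the dsRNAi arrays and -1.85 and -0.58 on the antisense arrays, and without antisense replicate 1 its mean was -0.46 (adjusted p = 0.00492). For AK068409 the ratios were 0.17 and -0.04 on the dsRNAi arrays and -1.57 and -1.97 on the antisense arrays.

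Between constructs 1 of the 36 had a higher ratio in dsRNAi and 9 had a lower one, where 6.32% of all probes were higher and 10.1% lower. The ammonium transporter OsAMT1 (AK073718) differed most, by -2.43 ± 0.219 (SE, adjusted p = 0.000487). Its log2 levels were 10.23 and 9.89 in dsRNAi panicles and 10.15 and 10 in antisense panicles. In wild type they were 10.39 and 10.53 on the dsRNAi arrays and 8.30 and 7.79 on the antisense arrays. The transgenic levels overlapped, and wild type on the antisense arrays stood below all other channels, where for the OsENOD93a cDNAs it stood above them. In the wild type channels 9 of the 36 were higher on the dsRNAi arrays and 2 lower, where 15.7% of all probes were higher and 17.1% lower. In the transgenic channels 0 were higher and 1 lower in limma, with 6 at an unadjusted p under 0.05, where 1.29% of all probes were higher and 1.47% lower.

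**Figure D4:**
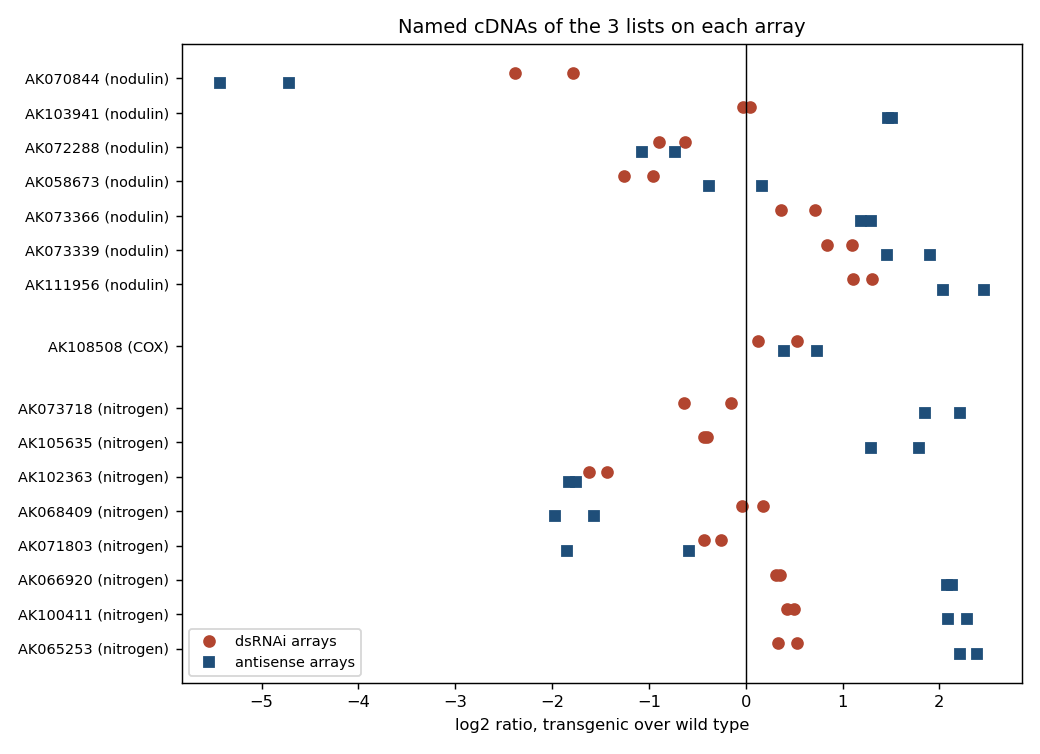
Log2 ratios of transgenic over wild type (x axis) for the named cDNAs of the nodulin, cytochrome c oxidase (COX) and nitrogen lists (y axis), on the 2 dsRNAi arrays (circles) and the 2 antisense arrays (squares). Nitrate reductase (AK102363) lies between -1.83 and -1.43 on all arrays, while OsAMT1 (AK073718) is at -0.64 and -0.16 on the dsRNAi arrays and 1.85 and 2.21 on the antisense arrays.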

How the data were processed

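The scanner files of 4 Agilent arrays with 2 colours and a series table were used. Per the file headers, the deposited intensities (mean foreground and median background of each spot) came from Feature Extraction 8.1.1.1 for antisense and 9.1.3.1 for dsRNAi. The deposited log10 ratios of Cy5 over Cy3, which the same software wrote, were turned to log2. The series table holds the authors' processed log2 ratios, and their scale and direction were found by comparison with the scanner log ratios (r 0.839 to 0.975, slopes 0.947 to 1.02). Their column medians, turned to transgenic over wild type, were 0.0842 and 0.0521 for dsRNAi and -0.0046 and -0.0366 for antisense, and the authors' centring is unknown. The deposited other flags (well above background, saturated, outlier) were used as given.

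Dyes followed the label fields. The labelling text of the swapped arrays names the other dye, but with the label fields arrays of opposite orientation correlated at 0.832 (dsRNAi) and 0.933 (antisense). Values were corrected with normexp (offset 50) and loess in limma 3.58.1 (R 4.3.3), control spots having weight 0 in the loess fit and being dropped afterwards, and 1 to 67 outlier spots an array were set missing. A probe was kept where 2 arrays or more had it well above background in either colour (18096 kept, 18094 tested). Constructs were fitted as 1 coefficient each with lmFit and eBayes, and adjusted p is Benjamini-Hochberg over all tested probes at 0.05. Channel levels came from Aquantile and lmscFit (17997 probes, intraspot correlation 0.243). The number of arrays limits the precision, and p-values measure the spread between these arrays only. The fits were tested on simulated data.

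The members and lists were chosen with earlier results of these data known. Named were all ENOD93 cDNAs, the 5 nearest described probes by each distance, and in each list up to 3 that rose, 3 that fell and 3 that differed most between constructs among those that passed. The other cytochrome c oxidase cDNAs were named after their values were seen. Lists were found by words in the probe descriptions. Alternatives were another offset, the scanner or series log ratios, median centring, no filter, saturated spots left out, averaged antisense arrays, a dye term, an intensity trend, other channel scalings and leaving out each array.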

Additional observations from a re-analysis of the deposited data

Results flagged for a closer look

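The limma test of the difference between constructs was passed by 16.4% of all probes. It was passed by 13 of the cDNAs described, some of them named because they passed it, so nothing is read from their number. Among them were both OsENOD93a cDNAs, AK105832 (2.10 ± 0.182, SE) with mean log2 ratios of -3.44 in dsRNAi and -5.54 in antisense, and AK059772 (3.42 ± 0.294, SE) with -0.45 in dsRNAi and -3.87 in antisense. Neither call held with median centring in place of loess. The call of AK059772 rests on dsRNAi spots near background, and was also lost with the scanner software's log ratios and with the authors' processed table. Of the nodulins, AK070844 was called with the higher ratio in dsRNAi (a fitted 2.99). Its transgenic RNA was not well above background on any array, so neither size nor direction is read from it. AK103941 (-1.48), AK111956 (-1.04), AK058673 (-0.998) and AK073366 (-0.70) had a lower ratio in dsRNAi. The call of AK058673 was lost without antisense replicate 1 (-0.72) or dsRNAi replicate 1 (-0.85), and that of AK073366 when either antisense array (-0.75 and -0.65) or the first dsRNAi array (-0.53) was left out. Of the nitrogen list, AK068409 (1.84) had the higher ratio in dsRNAi, and OsAMT1 AK073718 (-2.43), AK105635 (-1.96), AK065253 (-1.87), NRT1 AK066920 (-1.78) and AMT2 AK100411 (-1.73) had the lower one. Construct, scan day and software version cannot be told apart in any of these.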

How the results depend on the processing

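The wild type channel difference of both OsENOD93a cDNAs kept its sign under every channel alternative run. It was from -2.46 to -2.15 for AK105832 and from -5.88 to -3.82 for AK059772. For AK059772 this is not read as support, since that probe met the filter on dim spots only with the antisense arrays. All alternatives use the same arrays. Leaving out saturated spots removes AK105832 from the channel fit, so it has no value there, and its ratio difference was then 2.12 (adjusted p = 0.00183). The deposited scanner log ratios weakened the AK059772 difference to 3.04 (adjusted p = 0.0847) and left 2 nodulins between constructs. The series table weakened it to 0.34 on 1 dsRNAi array, moved the AK059772 mean to -5.39, and left 1794 probes and 2 nodulins between constructs. Median centring weakened the difference of AK105832 to 2.42 and of AK059772 to 2.67. It left 1117 probes in the mean, 862 in antisense, 198 in dsRNAi and 33 between constructs, with 4 nodulins, 0 cytochrome c oxidase and 5 nitrogen cDNAs in the mean, and 0 nodulins and 0 nitrogen cDNAs between constructs. The main counts were 7542, 6726, 4673 and 2967. In the transgenic channels 497 probes passed, against 327 with offset 10 and 206 with processed signals. The cause of these moves was not tested. Leaving out each array gave 68 to 327 probes in the transgenic channels, 3692 to 4680 in the wild type channels (5896 with all arrays), 1 to 2 cytochrome c oxidase cDNAs in the mean and 0 to 1 between constructs, and -0.97 to -0.016 for AK059772 in the transgenic channels. Where 1 array of a construct is left, the lone array is assumed to vary like the other construct's arrays, and fits of 3 arrays kept the intraspot correlation of all 4. Slide and scan day as a block were not run, since the 4 arrays were on 4 slides and the 2 scan days were those of the constructs. No paired analysis was possible because the labels give no replicate numbers that link arrays, and each log ratio already sets transgenic against wild type RNA of the same array. Signal over background limits AK059772, and saturation limits AK105832 on antisense replicate 2.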
